A study of Mus musculus with 12 samples.

Results

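A set of 10 genes of haematopoietic stem and progenitor cells was followed through early T cell development by the open chromatin around them: Tal1, Lyl1, Lmo2, Hhex, Mef2c, Bcl11a, Gfi1b, Mecom, Hlf and Meis1. The measure was DNase-seq, which marks open chromatin as stretches that the enzyme DNase I cuts often, called hypersensitive sites and listed as peaks. A site was a region formed by merging the overlapping peaks of all 12 libraries, and a site belonged to a gene when it touched the gene body or the 50 kb on either side of it (mm10 coordinates, GENCODE gene bodies). The 10 windows held 285 of the 170207 sites in the genome. They ranged from 16 sites at Hlf to 41 at Lyl1. Sites are named below by their signed distance in kb from the 5′ end of the gene record, so that Tal1+39.48 lies 39.48 kb downstream of the start of Tal1.

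The libraries came from C57BL/6J mice. Freshly isolated LSK cells, lineage-negative marrow progenitors sorted for SCA1 and KIT, gave 3 libraries. The same kind of cell, cultured on a high density of an immobilized Delta1 fusion protein, a Notch ligand, gave 2 libraries each of DN1 (KIT++, CD44+, CD25-), DN2a (KIT++, CD44+, CD25+) and DN2b (KIT+, CD44lo, CD25+) cells, which are successive T cell precursors. The IgG group, 3 libraries, was LSK cells cultured on human IgG1 without Notch ligand. All cultures held SCF, FLT-3 ligand, IL-6 and IL-11; IL-7 was given for DN2 cells but not for DN1 cells, so stage and IL-7 cannot be told apart between DN1 and DN2. Whether the IgG cultures held IL-7 is not given in the sources used here. LSK, DN1, DN2a and DN2b cells were sorted by surface markers, while no sort after culture is stated for the IgG cells. The libraries are bulk: fewer cells with an open site and a less open site in each cell cannot be told apart. Nothing here measures transcripts, so whether the genes were silenced was not tested.

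Each library is a list of 150 bp peaks with a score from 1 to 150 and no read totals, and the lists differ 3.39-fold in length, from 32977 to 111657 peaks. A level is therefore given as the percentile of a peak's score within its own list, with 0 where the list has no peak in the site. The longest lists were those of DN1 replicate 1 (96508 peaks) and DN2b replicate 2 (111657), and the IgG lists were the shortest, so each main count is given for the lists as deposited and again with every list cut to its 32952 highest-scoring peaks ("equal lengths"). Presence in a group means a peak in 2 or more of its libraries. Promoters of T precursor markers (8 genes, a peak within 1 kb of the start) were open at 1 gene in each LSK library, 3 in each DN1, 6 in each DN2a, 7 in each DN2b and 0 in each IgG library. At equal lengths these counts were 0 in each LSK, 1 and 2 in DN1, 5 and 6 in DN2a, 7 and 6 in DN2b and 0 in each IgG. Of 6 LSK markers 3 to 4 were open in LSK, 3 in DN1, 2 to 3 in DN2a, 3 to 4 in DN2b and 1 to 2 in IgG, and at equal lengths 3 in each LSK and DN1, 2 in each DN2a and DN2b and 1 to 2 in IgG. Kit was open in all 12 libraries and Ly6a, which encodes SCA1, in none of them, and at equal lengths Cd34 was open in every LSK and DN1 library and in no other. Of 6 erythroid and megakaryocyte markers 4 were open in each LSK library, 4 to 5 in DN1, 3 to 4 in DN2a, 2 to 3 in DN2b and 0 to 1 in IgG, with Gata1 open in none of the 12. At equal lengths these counts were 4, 4 and 3 in LSK, 3 and 2 in DN1, 2 in each DN2a, 0 in each DN2b and 0 to 1 in IgG, so they fell along with the sites described below. Of 5 mast cell and basophil markers 1 was open in each LSK library, 2 in each DN1 and DN2a, 2 to 3 in DN2b and 0 to 1 in IgG. At equal lengths these were 0 to 1 in LSK, 1 in each Delta1 library and 0 to 1 in IgG. As deposited Mcpt8, a basophil protease gene, was open in all 6 Delta1 libraries, in IgG replicate 3 and in no LSK library, and at equal lengths in IgG replicate 3 alone. B lineage markers, 5 in all, were open at 2 genes in each LSK and Delta1 library and 1 to 2 in IgG. At equal lengths they were open at 2 in each LSK, 1 in each DN1 and DN2a, 2 and 1 in DN2b and 1 to 2 in IgG. The part of erythroid cells, megakaryocytes, mast cells and basophils in the losses and gains below was not tested.

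TAL1 and LYL1 are closely related basic helix-loop-helix factors that bind DNA at E boxes with E proteins, and LMO2 is the LIM-only bridge that joins them to LDB1 and GATA factors. GFI1B is a zinc finger repressor of erythroid and megakaryocytic cells. HHEX, MEF2C and BCL11A act in multipotent and lymphoid-primed progenitors, while MECOM, HLF and MEIS1 are known for their roles in stem cell self-renewal, and several members (TAL1, LYL1, LMO2, HHEX, MEF2C) are known as oncogenes or their partners in T cell leukaemia when they stay active in T cell precursors.

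A set of 9 member sites at the extremes of loss and gain, with no kept site among them, is shown as sequence: the 150 bp at the centre of each, from GRCm38 (the assembly of mm10), 5′ to 3′ in the direction in which the gene is transcribed. Capitals mark 6-base motifs that were searched on both strands: AGATAA, bound by factors of the GATA family, the E boxes CAGCTG and CAGATG, the ETS motif AGGAAG, the RUNX motif TGTGGT, the MEIS motif TGACAG, and TGGGAA for RBPJ, the DNA-binding partner of Notch. No motifs overlap in these windows. Sites open in every LSK library and in no DN2a or DN2b library were 17 of 285 member sites (5.96%, all sites 2.18%). At equal lengths they were 23 of 150 (15.3%, all sites 4.94%). The first 5 sites were open in every LSK library and in no DN2a, DN2b or IgG library, 1 for each of the 5 genes whose highest such site ranked highest in LSK. They lie at chr4:115095827-115095976 (between genes downstream of Tal1), chr2:103930867-103931016 (between genes upstream of Lmo2), chr8:84730887-84731036 (an intron of Nfix), chr11:24139587-24139736 (an intron of Bcl11a) and chr3:30330577-30330726 (an intron of Mecom, minus strand).
Tal1+39.48: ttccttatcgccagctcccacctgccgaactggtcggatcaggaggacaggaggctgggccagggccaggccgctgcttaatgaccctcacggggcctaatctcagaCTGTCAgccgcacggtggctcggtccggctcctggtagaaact
Lmo2-27.04: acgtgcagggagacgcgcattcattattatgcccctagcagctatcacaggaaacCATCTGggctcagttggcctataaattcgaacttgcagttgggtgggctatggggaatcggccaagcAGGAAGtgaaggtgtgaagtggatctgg
Lyl1+29.50: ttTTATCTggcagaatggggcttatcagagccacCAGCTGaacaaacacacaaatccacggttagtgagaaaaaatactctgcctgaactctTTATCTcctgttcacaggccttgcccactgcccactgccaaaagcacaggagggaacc
Bcl11a+61.61: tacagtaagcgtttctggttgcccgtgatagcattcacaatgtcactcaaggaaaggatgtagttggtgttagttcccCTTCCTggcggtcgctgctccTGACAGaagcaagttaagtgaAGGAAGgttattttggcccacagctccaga
Mecom+217.36: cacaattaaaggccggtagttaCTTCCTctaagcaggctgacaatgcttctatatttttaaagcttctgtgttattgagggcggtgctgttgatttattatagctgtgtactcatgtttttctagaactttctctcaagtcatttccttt

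The other 4 are the member sites open in all 6 libraries from Delta1 culture and in no LSK library, and they had no peak in IgG either. Sites open in all Delta1 and no LSK libraries were 1.4% of the member sites, against 2.14% of all sites, and at equal lengths 5 of 150 (3.33% against 2.27%), so the order turned with the list length. They lie at chr11:24131957-24132106 (an intron of Bcl11a), chr11:18996917-18997066 (an intron of Meis1, minus strand), chr13:83458837-83458986 (between genes upstream of Mef2c) and chr2:28605947-28606096 (between genes downstream of Gfi1b, minus strand).
Bcl11a+53.98: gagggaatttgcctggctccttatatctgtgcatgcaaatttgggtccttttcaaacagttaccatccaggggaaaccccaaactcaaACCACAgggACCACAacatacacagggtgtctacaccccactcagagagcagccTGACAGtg
Meis1+21.99: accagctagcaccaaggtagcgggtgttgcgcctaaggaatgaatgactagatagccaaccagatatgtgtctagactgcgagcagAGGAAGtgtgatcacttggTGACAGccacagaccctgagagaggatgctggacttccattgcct
Mef2c-45.12: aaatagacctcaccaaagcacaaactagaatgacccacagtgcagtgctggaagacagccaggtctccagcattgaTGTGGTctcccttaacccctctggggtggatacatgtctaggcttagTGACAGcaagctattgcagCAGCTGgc
Gfi1b+15.96: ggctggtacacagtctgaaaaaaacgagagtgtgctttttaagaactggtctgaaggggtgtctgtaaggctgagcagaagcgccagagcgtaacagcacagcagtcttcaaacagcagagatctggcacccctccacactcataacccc

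In LSK cells 105 of the 285 sites were present. By DN2b 52 of them were lost, 49.5%, against 34% of the 52594 LSK sites in the genome. The losses were most often placed at the first step: 28 sites (26.7%, genome 16.3%) were gone from DN1 on, 14 (13.3%, genome 11.6%) from DN2a on and 10 (9.52%, genome 6.12%) at DN2b. Another 53 were kept, 12 of them with a stage in between at which the site was not present, and 36 sites not present in LSK were gained, 22 of them at DN1, 1 at DN2a and 13 at DN2b. The gained sites were 12.6% of the member sites, against 19.6% of all sites, and at equal lengths 8% against 17.3%. At equal lengths 51 of 82 LSK sites were lost, 62.2% against 40.4% of all. Of these 30 were lost at DN1 (36.6%, genome 24.3%), 12 at DN2a (14.6%, genome 8.15%) and 9 at DN2b (11%, genome 7.88%). The count placed at DN1 fell from 28 to 13 without DN1 replicate 2, and to 15 without LSK replicate 3. Sites lost by DN2b fell from 52 to 31 without DN2b replicate 1. With 1 DN1 or DN2b library left, presence asked for a peak in that library alone, where before it asked for both. With 2 LSK libraries left it asked for both, where before it asked for 2 of 3. These falls thus mix a changed rule with the missing library. All 10 sites placed at DN2b as deposited still had a peak in DN2b replicate 2, at 32.2 to 75, and none in replicate 1, so that step rests on 1 library. At equal lengths 2 of the 9 had a peak in replicate 1 and 1 in replicate 2.

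**Figure D1:**
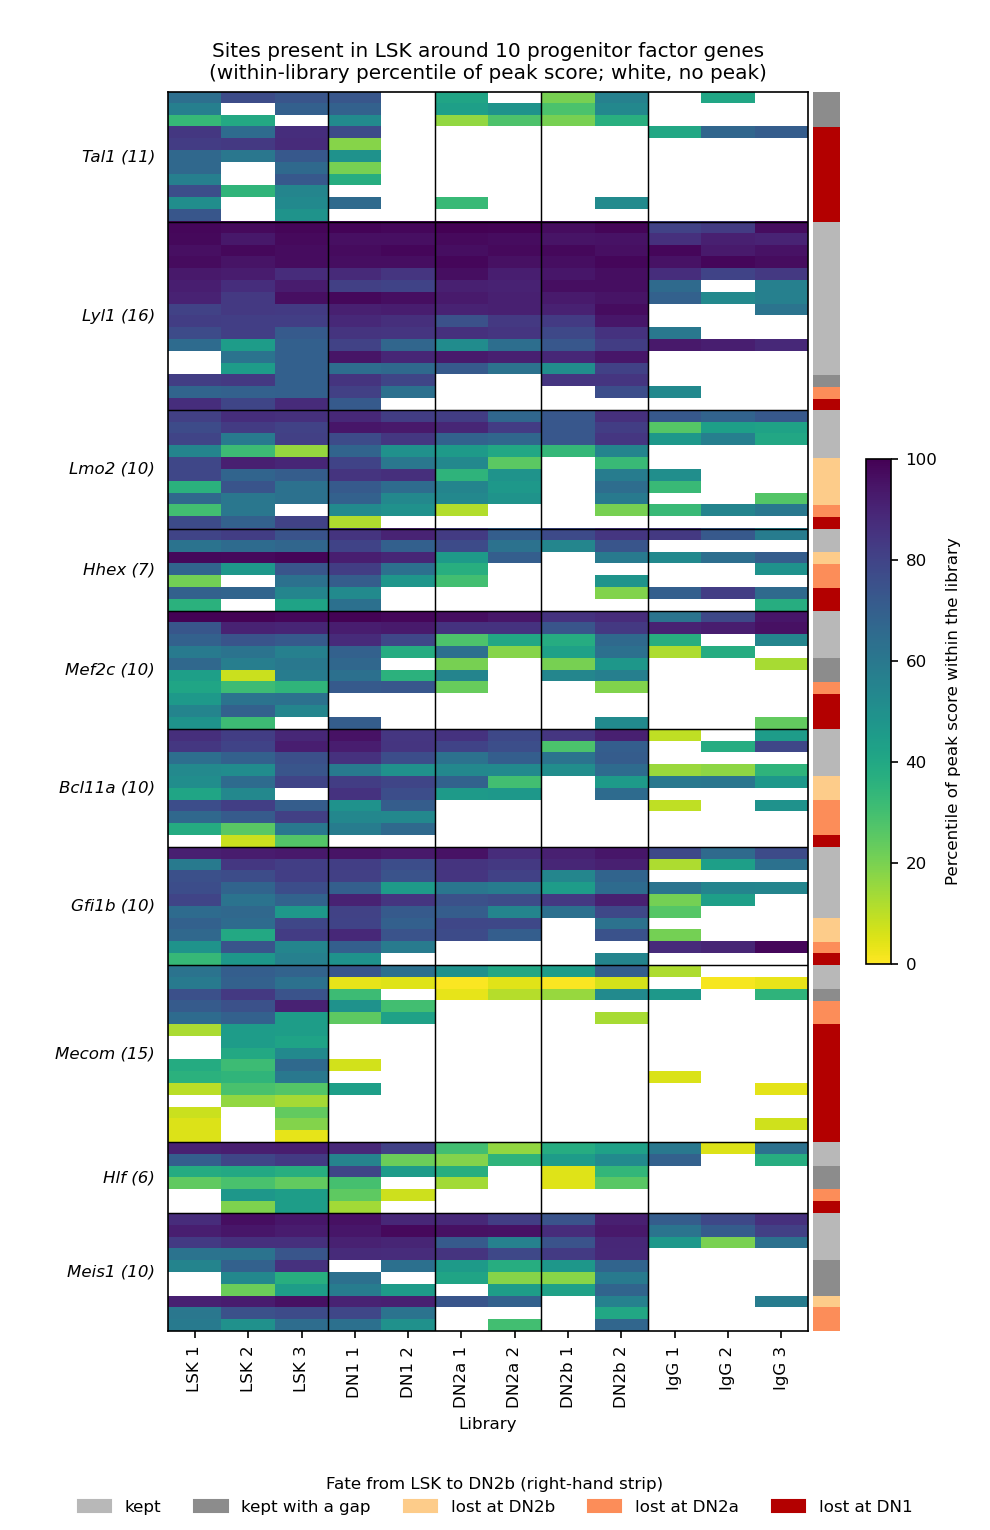
Percentile of peak score in 12 libraries (columns) for the 105 sites present in LSK (rows, grouped by gene with the number of sites in parentheses; white, no peak), with the fate of each site in the strip at the right. Most Mecom rows turn white after LSK and all Tal1 rows are white in DN1 replicate 2, whereas most Lyl1 rows stay dark to DN2b.

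The genes differed widely among themselves. Mecom lost 12 of 15 LSK sites and Tal1 8 of 11, while Lyl1 lost 2 of 16. Between them lay Hhex with 5 of 7, Lmo2 with 6 of 10, Bcl11a with 6 of 10, Mef2c and Gfi1b with 4 of 10 each, Hlf with 2 of 6 and Meis1 with 3 of 10. At equal lengths Tal1 lost 10 of 10, Mecom 7 of 7 and Hlf 2 of 2, and Lyl1 again 2 of 16. Mef2c and Bcl11a then lost 6 of 8 each, Lmo2 5 of 8, Hhex 3 of 5, Gfi1b 6 of 10 and Meis1 4 of 8. A window can reach other genes: the nearest protein-coding start was the member's own for 11 of 41 sites at Lyl1 and 8 of 24 at Gfi1b, but for all 33 at Mef2c, 29 at Meis1 and 19 at Hhex.

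Lost sites ranked lower in LSK than kept sites, with a median LSK percentile of 55.9 for the 52 lost and 76.9 for the 53 kept sites, and the same held over the genome (32.1 and 63.5). Within bands of LSK level the shares were still above those of all sites. Among sites with a median LSK percentile of 75 or more, 10 of 39 member sites were lost (25.6%, genome 8.04%), among those from 50 to 75 it was 20 of 36 (55.6%, genome 28.6%), and below 50 it was 22 of 30 (73.3%, genome 51%). Within 1 kb of the 5′ end of a protein-coding gene 5 of 18 were lost (27.8%, genome 13.9%), and farther away 47 of 87 (54%, genome 40.8%). These shares are descriptions and no test was made over the member list.

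**Figure D2:**
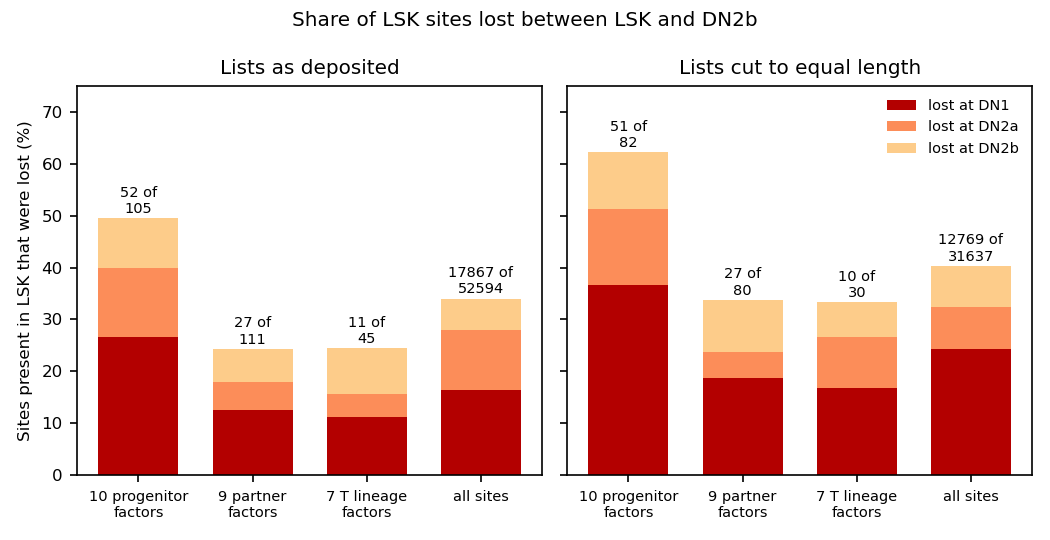
Percent of the sites present in LSK that were lost by DN2b, split by the stage of loss (stacked bars), for the 10 progenitor factors, 9 partner factors, 7 T lineage factors and all sites, as deposited (left) and at equal list lengths (right); numbers above the bars are lost and present sites. The progenitor factor bar is the highest in both panels, at 49.5% and 62.2%.

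Differences between groups were tested site by site with limma over all 114527 sites that had a peak in at least 2 libraries, of which 185 were member sites. A site open in the LSK libraries and in at most 1 other, such as Tal1+39.48, Tal1+0.33, Lmo2-27.04 or Lyl1+29.50, entered through LSK. Differences are given for these sites without a test, though they remain in the counts. A site with no peak in LSK entered through the cultures. Member sites open in all Delta1 libraries and in no LSK library are likewise given without a test as deposited. For other sites absent from LSK the p adds little to the pattern of peaks itself. From LSK to DN2b 26 member sites fell at an adjusted p under 0.05, 14.1% of those tested against 4.76% of all sites, and 17 rose, 9.19% against 16.5%. At equal lengths 37 of 117 fell (31.6% against 11.4%) and 8 rose (6.84% against 14.1%). The count of 17 that rose dropped to 6 without DN2b replicate 2, the longest list. Step by step, 12 member sites fell (2.29% of all sites did) and 21 rose (13.8%) from LSK to DN1, 18 fell (7.54%) and 0 rose (1.76%) from DN1 to DN2a, and 0 fell (0.372%) and 8 rose (4.27%) from DN2a to DN2b. At an unadjusted limma p under 0.05, 2 rose from DN1 to DN2a and 3 fell from DN2a to DN2b. Here and below, shares of all sites and genes are for the adjusted threshold, so unadjusted counts are not compared with the genome. Without DN1 replicate 1 the 21 became 8 and the 18 became 6, and without DN2b replicate 2 the 8 became 1. At equal lengths 19 fell (6.88%) and 10 rose (8.71%) from LSK to DN1, 10 fell (4.66%) and 3 rose (4.89%) from DN1 to DN2a, and 3 fell (2.07%) and 2 rose (3.83%) from DN2a to DN2b. Comparisons that share a group, such as LSK, are not independent.

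Tal1 lost 8 of its 11 LSK sites. Tal1 (ENSMUSG00000028717.12) lies at chr4:115056426-115071755 on the plus strand. All 8 losses were placed at DN1, but the 2 DN1 libraries differed: replicate 1 had a peak in 18 of the 25 sites of the window and replicate 2 in none, so that 6 of the 8 sites had a peak in replicate 1. LSK libraries had 11, 7 and 11, DN2a 5 and 2, DN2b 4 and 9, and IgG 3, 4 and 4. At Tal1+39.48, in the region downstream of Tal1 where an enhancer of erythroid cells is known, the percentile was 82.4, 83.3 and 87.8 in LSK, 18.3 and 0 in DN1, and 0 in all DN2a, DN2b and IgG libraries. The difference from LSK to DN2b was -84.5 ± 6.93 percentile points (SE), and from LSK to IgG -84.5 ± 6.2. No test is given for either, since the site entered the fit through LSK, where it is high. The LSK libraries were thus all high, and no other library came near them.

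The promoter sites Tal1+0.33 and Tal1+0.58 were absent from the 4 DN2 libraries. Tal1+0.33, inside the gene, had 66.4, 60.5 and 72.7 in LSK, 48.9 and 0 in DN1 and 0 elsewhere. Its difference from LSK to DN2b was -66.5 ± 12.1, with no test since it too entered the fit through LSK. Tal1+0.58 had 83.6, 65 and 86.8 in LSK, 77.2 and 0 in DN1, 0 in DN2a and DN2b, and 39.9, 66.9 and 70.5 in IgG. It fell from LSK to DN2b (-78.5 ± 19.4, limma adjusted p = 0.017) but its IgG values overlapped those of LSK (-19.4 ± 17.3, limma adjusted p = 0.6). The DN2b call of Tal1+0.58 was lost without LSK replicate 1, without LSK replicate 3 and without either DN2b library. Tal1+19.32, in the stretch that holds a known stem cell enhancer of the gene, was not lost by the rule: it had 56.8, 0 and 69.4 in LSK, 68.8 and 0 in DN1, 43.5 and 48.6 in DN2a, 28.2 and 53.5 in DN2b and 0 in all IgG libraries, and at equal lengths it was lost from DN1 on.

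Lyl1, the paralogue of Tal1, kept 14 of 16 LSK sites in a gene-dense window that also holds Nfix, Trmt1, Nacc1 and Ier2. Lyl1 (ENSMUSG00000034041.4) lies at chr8:84701457-84704715 on the plus strand. Its promoter site Lyl1+0.10 (chr8:84701317-84701806, overlapping an untranslated exon) was at 97.8, 93.5 and 97.3 in LSK, 96 and 95.9 in DN1, 97.3 and 96.6 in DN2a, 94.8 and 95.2 in DN2b and 86.1, 91.3 and 90.2 in IgG. It differed little from LSK to DN2b (-1.18 ± 1.9, limma adjusted p = 0.77), and as deposited the IgG libraries were all below the others (-7.01 ± 1.7, limma adjusted p = 0.016). At equal lengths the IgG values of 84.1, 91.4 and 88.8 overlapped those of LSK, DN1 and DN2b, and the difference did not pass (-5.43, limma adjusted p = 0.15). The clear loss in the window was Lyl1+29.50, with 86.9, 79.2 and 87.8 in LSK, 71.6 and 0 in DN1 and 0 in every DN2a, DN2b and IgG library. Its difference from LSK to DN2b was -84.6 ± 16.5, with no test since it entered the fit through LSK. Lyl1+21.59, at the promoter of G430095P16Rik, was open in all LSK and Delta1 libraries at 75.4 to 94 and in no IgG library (LSK to IgG -81.5 ± 3.75, limma adjusted p = 1.8e-06).

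Lmo2 lost 6 of 10 LSK sites, 4 of them only at DN2b, where DN2b replicate 2 still had a peak in each of the 4. Lmo2 (ENSMUSG00000032698.15) lies at chr2:103957986-103981878 on the plus strand. At Lmo2-27.04 the percentile was 77.3, 68.8 and 80.2 in LSK, 11.9 and 0 in DN1 and 0 in all other libraries. Relative to LSK its difference was -69.5 ± 6.5 for DN1 and -75.4 ± 6.5 for DN2b. No test is given, because this site entered the fit through LSK. A slower decline was seen at the next LSK site towards the gene. Lmo2-23.14 had 78.9, 91 and 89.3 in LSK, 79.8 and 60.2 in DN1, 53.1 and 25.3 in DN2a, 0 and 32.2 in DN2b and 0 in IgG, so that the mean fell at each stage, with no overlap between DN1 and DN2a (LSK to DN2b -70.3 ± 11.4, limma adjusted p = 0.0018). The promoter site Lmo2+11.60, at the start of a shorter protein-coding transcript, had 78.9, 67.6 and 70.5 in LSK, 85 and 86.4 in DN1, 34.9 and 48.6 in DN2a, 0 and 58.1 in DN2b, and 50.7, 0 and 0 in IgG. Its difference from LSK to DN2b, -43.3 ± 18.6, did not pass (limma adjusted p = 0.16; at equal lengths -52.1, limma adjusted p = 0.016). The upstream site at chr2:103945877-103946086 had a peak in all 12 libraries, at 66.5 to 88.3.

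Gfi1b lost 4 of 10 LSK sites and gained 3, and at equal lengths it lost 6 of 10. Gfi1b (ENSMUSG00000026815.14) lies at chr2:28609450-28621982 on the minus strand. Its promoter site Gfi1b+0.04 had 66.4, 39.8 and 82.3 in LSK, 88.3 and 74.6 in DN1, 77 and 70 in DN2a, 0 and 75 in DN2b and 20.8, 0 and 0 in IgG, so the DN2b libraries disagreed and the site counts as lost because presence asks for both of them. A second promoter site, Gfi1b-0.67, rose with Delta1 culture: it had 0, 0 and 26.9 in LSK, 60.7 and 58.6 in DN1, 68.5 and 56.2 in DN2a, 60.5 and 73 in DN2b and 17.9, 0 and 0 in IgG (LSK to DN2b 57.8 ± 10.3, limma adjusted p = 0.003; at equal lengths 17.4, limma adjusted p = 0.069). Downstream, Gfi1b+15.96 was absent from LSK and IgG and had 81.5 and 58.6 in DN1, 86 and 61 in DN2a and 55.9 and 72.3 in DN2b. Its difference from LSK to DN2b was 64.1 ± 9.63 as deposited, with no test since it entered the fit through the Delta1 libraries. At equal lengths the difference was 12 and did not pass (limma adjusted p = 0.59). Gfi1b+30.35 had 48.6, 74.2 and 54.6 in LSK, 69.7 and 58.6 in DN1, 0 in all 4 DN2 libraries and 87.6, 89.6 and 98.2 in IgG. It fell from LSK to DN2b (-59.1 ± 7.89, limma adjusted p = 0.00056) and rose from LSK to IgG (32.7 ± 7.06, limma adjusted p = 0.0087). At equal lengths the fall to DN2b was -29.1 and did not pass (limma adjusted p = 0.11), while the rise in IgG was 62.1 and passed (limma adjusted p = 0.0014).

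Hhex, a homeobox factor needed for definitive haematopoiesis, lost 5 of 7 LSK sites and kept the one nearest its start. Hhex (ENSMUSG00000024986.12) lies at chr19:37434810-37440731 on the plus strand. The 5 lost were the promoter sites Hhex+1.01 and Hhex+1.87 and the intergenic Hhex-6.01, Hhex+13.63 and Hhex+54.24. Hhex-0.10 was open in all 12 libraries, at 58.1 to 90, and did not pass the test from LSK to DN2b (2.1 ± 6.82, limma adjusted p = 0.95). Hhex+1.01, about 1 kb into the gene, ranked near the top of the LSK lists with 98, 97.4 and 98.7, then had 91.4 and 89.1 in DN1, 45.5 and 70 in DN2a, 0 and 59.2 in DN2b and 52.4, 63.9 and 70.5 in IgG. The DN1, DN2a and DN2b values did not overlap with LSK (LSK to DN2b -68.4 ± 14.5, limma adjusted p = 0.008). Hhex+1.87 had 68.9, 67.6 and 54.6 in LSK, 52.2 and 0 in DN1, 0 in DN2a, 0 and 18.9 in DN2b and 69.8, 81.7 and 65.5 in IgG. It fell in Delta1 culture (LSK to DN2b -54.2 ± 13.8, limma adjusted p = 0.02) while its IgG values overlapped those of LSK. At equal lengths Hhex+1.87 had 65.6, 81.7 and 60.8 in IgG, all above the 49.2, 46.4 and 14 of LSK (32.8, limma adjusted p = 0.026). Hhex+8.28 opened in both cultures, from 0, 0 and 32.1 in LSK to 65.9 to 84.6 in the 6 Delta1 libraries and 71.6 to 79.1 in IgG (LSK to DN2b 65.5 ± 9.95, limma adjusted p = 0.0012).

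Mef2c, a MADS box factor of lymphoid-primed progenitors, has several promoters, and both promoter sites described below stood lower in DN2b than in LSK. Mef2c (ENSMUSG00000005583.16) lies at chr13:83504034-83667080 on the plus strand. Mef2c+68.17, at the start of an internal transcript, was open in every library: 99.3, 99.3 and 98.4 in LSK, 99.4 and 98.2 in DN1, 96.2 and 93.8 in DN2a, 85.3 and 87.5 in DN2b and 61.4, 78.1 and 93.8 in IgG. Its DN2b values lay below all LSK values without passing the test (-12.6 ± 7.1, limma adjusted p = 0.27), but it passed at equal lengths (-33.2, limma adjusted p = 0.019). At another start, Mef2c+20.76 had 68.9, 74.2 and 71.6 in LSK, 87.6 and 78.5 in DN1, 27.9 and 40 in DN2a, 38.1 and 65.9 in DN2b and 37.5, 0 and 54.6 in IgG, so that every DN2a and DN2b value lay below those of LSK and DN1, and at equal lengths the site was lost from DN2a on. Within the introns, Mef2c+14.44 and Mef2c+62.35 had peaks in the LSK libraries alone. Mef2c+62.35 had 54.9, 68.8 and 54.6 there and 0 in all the others, and since both entered the fit through LSK alone no test is given for them. Upstream, Mef2c-45.12 did the reverse, with 0 in LSK and IgG and 82.5 and 75.4 in DN1, 80 and 74.1 in DN2a and 71.8 and 82.9 in DN2b. Its difference from LSK to DN2b was 77.4 ± 5.84, with no test since it entered the fit through the Delta1 libraries.

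Bcl11a, a zinc finger factor of lymphoid progenitors, lost 6 of 10 LSK sites while neighbouring sites of its introns moved in opposite directions. Bcl11a (ENSMUSG00000000861.15) lies at chr11:24078056-24174123 on the plus strand. Bcl11a+61.61 had 66.4, 71.1 and 80.9 in LSK, 53.7 and 53.4 in DN1 and 0 in the DN2a, DN2b and IgG libraries (LSK to DN2b -72.8 ± 6.4, limma adjusted p = 4.8e-05; DN1 to DN2a -53.5 ± 7.01, limma adjusted p = 0.0013). At equal lengths it was lost from DN1 on, and its step from DN1 to DN2a did not pass (-0.931, limma adjusted p = 1). Bcl11a+53.98, in an intron of the same gene, had 0 in LSK and IgG, 73.4 and 60.2 in DN1, 74.5 and 74.1 in DN2a and 85.9 and 90 in DN2b. The difference of this site from LSK to DN2b was 87.9 ± 5.81, with no test since it entered the fit through the Delta1 libraries. Its DN2b values were above all DN1 and DN2a values. The promoter site Bcl11a-0.03 had 83.6, 79.9 and 91.7 in LSK, 92 and 84.8 in DN1, 80 and 75.9 in DN2a, 28.2 and 70 in DN2b and 0, 38.2 and 78.8 in IgG, and the DN2b libraries lay far apart and the difference did not pass (LSK to DN2b -35.9 ± 19.6, limma adjusted p = 0.25; at equal lengths -74.8, limma adjusted p = 0.0098). Bcl11a+3.19, at the start of another transcript, was open at 61.8 to 85.9 in all LSK and Delta1 libraries and in no IgG library (LSK to IgG -69.3 ± 5.06, limma adjusted p = 1.5e-05).

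Mecom, which encodes the stem cell factor EVI1 and its PR domain isoform, lost 12 of its 15 LSK sites. Mecom (ENSMUSG00000027684.16) lies at chr3:29951296-30548008 on the minus strand. Its body spans 596.7 kb, and 10 of those sites were gone from DN1 on and 2 more from DN2a on. The number of sites with a peak was 15, 17 and 18 in LSK, 10 and 7 in DN1, 4 and 4 in DN2a, 4 and 9 in DN2b and 3, 1 and 6 in IgG. Mecom+217.36 had 71.3, 75.1 and 90.5 in LSK, 48.9 and 30.5 in DN1 and 0 in the other libraries (LSK to DN1 -39.3 ± 8.12, limma adjusted p = 0.0093; LSK to DN2b -79 ± 8.12, limma adjusted p = 0.00012). Mecom+70.85 was kept by presence alone, and lost from DN1 on at equal lengths: it had 58.6, 68.8 and 62.8 in LSK, then 3.56 and 4.95 in DN1, 0.506 and 4.56 in DN2a, 0.551 and 6.62 in DN2b and 0, 1.42 and 3.45 in IgG (LSK to DN2b -59.8 ± 5.92, limma adjusted p = 9.4e-05). Mecom-44.50, upstream of the gene, was the highest-ranked site kept at DN2b, with 62 to 70 in LSK, 44.9 and 70 in DN2b and 12.2, 0 and 0 in IgG. At equal lengths this site was lost at DN2a.

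Hlf, a PAR bZIP factor used as a marker of stem cells, had few sites. Hlf (ENSMUSG00000003949.16) lies at chr11:90336536-90390895 on the minus strand. Its promoter Hlf-0.06 was at 70.1, 79.2 and 82.9 in LSK, 55.2 and 22.4 in DN1, 18.4 and 35.1 in DN2a, 44.9 and 52.2 in DN2b and 68.8, 0 and 37.6 in IgG. All other libraries lay below LSK, but the drop did not pass (LSK to DN2b -28.8 ± 17.6, limma adjusted p = 0.3; at equal lengths -61.4, limma adjusted p = 0.013). Hlf-27.22 had 91, 91.4 and 92.1 in LSK, 88.3 and 80.6 in DN1, 30.3 and 16.1 in DN2a, 38.1 and 42.9 in DN2b and 60.1, 5.38 and 62.8 in IgG. It fell from DN1 to DN2a (-61.3 ± 16.2, limma adjusted p = 0.047) and from LSK to DN2b (-51 ± 14.8, limma adjusted p = 0.036), with a peak left in all 4 DN2 libraries as deposited. At equal lengths it had 0 in all 4 and was lost at DN2a (LSK to DN2b -85.4, limma adjusted p = 0.001).

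Meis1, the TALE homeobox cofactor of HOX proteins, kept 7 of 10 LSK sites to DN2b (4 of 8 at equal lengths), and 3 of the 10 were present in IgG. Meis1 (ENSMUSG00000020160.18) lies at chr11:18879817-19018985 on the minus strand. Its promoter Meis1-0.01 was open in all 12 libraries at 70.7 to 96.3, and the intronic Meis1+93.89 at 61.4 to 97.3. Meis1+69.94 had 62, 62.1 and 73.6 in LSK, 87.6 and 87.3 in DN1, 85 and 78.5 in DN2a, 83 and 88.5 in DN2b and 0 in IgG, so that it rose with Delta1 (LSK to DN2b 19.9 ± 4.75, limma adjusted p = 0.015) and fell in IgG (-65.9 ± 4.25, limma adjusted p = 8.6e-06). Meis1+21.99 opened anew, with 0 in LSK and IgG and 87.6 and 92.2 in DN1, 89.9 and 81.5 in DN2a and 69.9 and 89.6 in DN2b (LSK to DN2b 79.8 ± 6.64, with no test since it entered the fit through the Delta1 libraries). Against this stood Meis1+48.86, with 91.4, 92.5 and 95.6 in LSK, 90.5 and 91.1 in DN1, 73.6 and 68.9 in DN2a, 0 and 55.9 in DN2b and 0, 0 and 58.1 in IgG. Its fall from LSK to DN2b (-65.2 ± 19.1, limma adjusted p = 0.038) was not stable: without DN2b replicate 1 the difference was -37.3 and did not pass (limma adjusted p = 0.21), and it also missed the threshold without any 1 of the LSK, DN1 or DN2a libraries (limma adjusted p from 0.052 to 0.09).

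At equal lengths, where a percentile is taken within a shorter list, some of the differences above were smaller by more than 1.5 times and still passed. From LSK to DN2b this held for Mecom+70.85 at -36.8 (limma adjusted p = 0.0005). Tal1+0.33 and Mef2c-45.12, for which no test is given, were smaller too, at -42.7 and 44.8. The fall of Meis1+69.94 in IgG was -41.7 (limma adjusted p = 0.00025). That of Mecom+217.36 from LSK to DN1 was larger, at -64.6. At equal lengths this site had peaks in LSK alone, so no test is given.

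**Figure D3:**
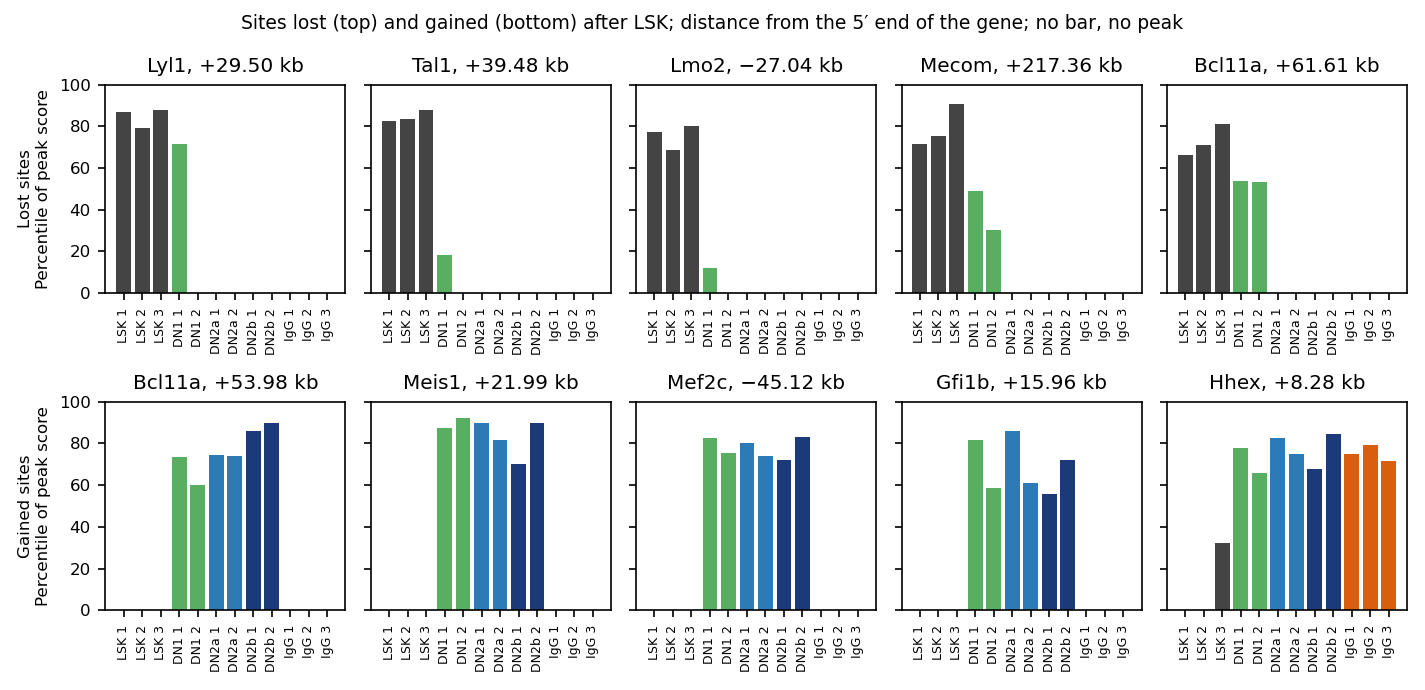
Percentile of peak score in each of 12 libraries for 5 sites lost after LSK (top) and 5 gained (bottom); bars are single libraries and a missing bar means no peak. The lost sites stand at 66.4 to 90.5 in LSK and have no peak in DN2a, DN2b or IgG, and of the gained sites Hhex+8.28 is the one that IgG cells share.

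For each gene the mean percentile over all sites of its window gave a single value per library, tested with limma over 20334 protein-coding genes. As deposited, the median of the changes of all genes from LSK to DN2b was 7.97 points, and the changes of 9 of the 10 members lay below it. Mecom alone passed as lower: it had 14.5, 21.6 and 22.4 in LSK and 2.85 and 7.82 in DN2b (-14.2 ± 2.89, limma adjusted p = 0.012; 1.66% of all genes passed as lower). From LSK to DN1 it was again Mecom alone that passed (-11.8, limma adjusted p = 0.043; 0.649% of all genes), with 0 members higher (3.05% of all genes). Mecom missed the threshold from LSK to DN2b with windows of 100 kb (-9.17, limma adjusted p = 0.0986). Its LSK to DN1 call ended with windows of 100 kb, without a mean-variance trend, by the number of sites with a peak (limma adjusted p = 0.0752) and without any 1 of 9 libraries. No member passed from DN1 to DN2a (0.91% of all genes lower, 0.0492% higher) or from DN2a to DN2b (0% lower, 0.0295% higher), and at an unadjusted limma p under 0.05 the counts were 3 lower and 0 higher, then 0 and 0. At equal lengths the median of the changes of all genes was -0.854. There 9 of 10 members passed as lower against 16.3% of all genes, the exception being Lyl1 (0.516 ± 2.45, limma adjusted p = 0.92). The call of 9 members thus depends on the list length. As deposited Gfi1b and Meis1 had the opposite sign (4.1 and 3.97), and Lmo2, Hhex, Mef2c and Bcl11a had it without DN2b replicate 1 (2.4 to 9.05), Lmo2 then passing as higher (limma adjusted p = 0.029).

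At equal lengths Hlf fell from 27.3, 32.7 and 30.5 in LSK to 21 and 11.8 in DN1 and 0 in every DN2a and DN2b library (LSK to DN2b -30.2 ± 4.51, limma adjusted p = 0.00082). Mecom went from 20.6, 26.9 and 24.8 to 2 and 2.05 in DN1 and 0 in DN2a and DN2b (-24.1 ± 2.14, limma adjusted p = 3.5e-05). Tal1 went from 29.4, 13.3 and 25.2 to 4.01 and 0 in DN1, 0 and 0.624 in DN2a and 0.918 and 0 in DN2b (-22.2 ± 3.91, limma adjusted p = 0.002). In the lists as deposited, the Tal1 window had 28.4, 16 and 28 in LSK, 31 and 0 in DN1 and 4.94 and 16.3 in DN2b. It then passed neither from LSK to DN1 (-8.63 ± 7.13, limma adjusted p = 0.41) nor from LSK to DN2b (-13.5 ± 7.13, limma adjusted p = 0.17). At equal lengths Hlf, Mecom and Tal1 were the members whose DN2 values came to or near 0. For Tal1 and Mecom the step from LSK to DN1 itself passed (-20.6 ± 3.91 and -22.1 ± 2.14, limma adjusted p = 0.0059 and 0.00012; 9.91% of all genes passed as lower). Hhex passed at the next step, from 28.1 and 27.1 in DN1 to 16.1 and 16.3 in DN2a (-11.4 ± 2.68, limma adjusted p = 0.041; 2.23% of all genes), and Gfi1b at the last, from 39 and 34.6 in DN2a to 23.1 and 19.8 in DN2b (-15.4 ± 2.27, limma adjusted p = 0.017; 0.391% of all genes). Lmo2, Mef2c, Bcl11a and Meis1 changed from LSK to DN2b by -10.7 to -18.1 points with no single step past the threshold. At equal lengths 0 members rose at any of the 3 steps, against 7.04%, 2.03% and 0.488% of all genes, and at an unadjusted limma p under 0.05 the counts were 0, 1 and 0.

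**Figure D4:**
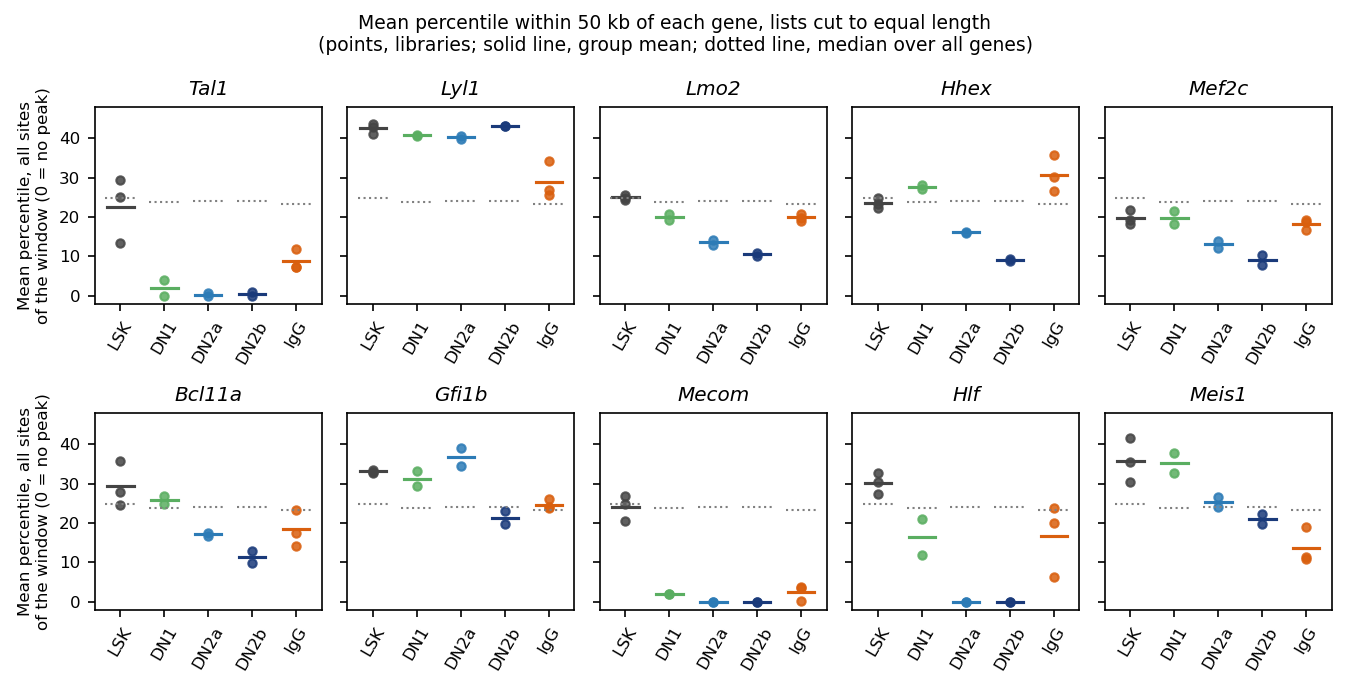
Mean percentile over all sites within 50 kb of each gene at equal list lengths, per library (points), with group means (solid lines) and the median over all protein-coding genes (dotted lines). Tal1, Mecom and Hlf reach or approach 0 in DN2a and DN2b, Lyl1 stays between 39.8 and 43.8 in LSK and Delta1 libraries, and Hhex is higher in IgG than in LSK.

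Culture without Notch ligand also left many LSK sites without a peak. In IgG 68 of the 105 LSK sites were not present (64.8%, genome 57.1%), beside 52 at DN2b, and at equal lengths 50 of 82 (61%, genome 41.7%), beside 51 at DN2b. By limma 52 member sites fell from LSK to IgG (28.1% against 17% of all sites) and 9 rose (4.86% against 4.86%). At equal lengths 39 of 117 fell (33.3% against 15.6%) and 11 rose (9.4% against 12.9%). Of the LSK sites lost by DN2b 45 were also not present in IgG and 7 were, and of those kept to DN2b 23 were not present in IgG and 30 were. Lost sites were thus absent from IgG in 86.5% of cases and kept sites in 43.4%, against 77.8% and 46.5% over the genome. At equal lengths the shares were 76.5% and 35.5%, against 65.5% and 25.6%. IgG shares the LSK libraries with the DN2b comparison, so this split is a description. As deposited, the 7 sites lost with Delta1 and present in IgG were Tal1+0.58, Hhex+1.01, Hhex+1.87, Lmo2+12.30, Bcl11a+107.08, Bcl11a+122.43 and Gfi1b+30.35.

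Some sites stood higher in IgG than in all other groups. Lmo2-10.90 had 78.4, 82.5 and 75.4 in IgG, 0 in LSK and DN1, 32.6 and 20.6 in DN2a and 0 and 25.5 in DN2b (LSK to IgG 78.8 ± 7.49, limma adjusted p = 6.9e-05). Bcl11a+9.21 had 83.5, 62.3 and 50.9 in IgG and no peak in any other library. Bcl11a+63.61 had peaks in the IgG libraries alone too, at 44.5, 68.2 and 68.1. Both entered the fit through IgG alone, so no test is given for them. The number of open granulocyte and macrophage marker promoters, of 6, was 3 to 4 in IgG and 1 to 3 in the other libraries (0 to 2 at equal lengths), with Mpo and Elane open in IgG replicate 3 alone, and the part of such cells in these gains was not tested. For the gene windows at equal lengths 8 of 10 members passed as lower in IgG than in LSK (26.4% of all genes) and Hhex as higher (17% of all genes), from 24.8, 22.2 and 23.4 to 26.6, 30.2 and 35.7 (7.35 ± 2.19, limma adjusted p = 0.02). As deposited, 3 passed as lower (Mecom, Hlf and Meis1; 12.4% of all genes) and 0 as higher, also at an unadjusted limma p under 0.05 (0.89% of all genes), and Hhex then had the opposite sign (-3.21). The as-deposited calls of Hlf and Meis1 were fragile: Hlf missed the threshold with windows of 20 kb (limma adjusted p = 0.0502) and 100 kb (0.247) and without any 1 of 7 libraries (0.053 to 0.144), and Meis1 without any 1 of 9 libraries (0.055 to 0.178).

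DN1 and IgG cells, cultured with and without ligand, differed among the 10 windows most at Meis1. DN1 cells were also sorted by KIT, CD44 and CD25 and no such sort is stated for IgG cells, so ligand and sorting cannot be told apart. From IgG to DN1 66 member sites rose (35.7% against 32.8% of all) and 7 fell (3.78% against 4.42%), with shares close to those of the genome, and 29 rose (24.8% against 17.1%) and 13 fell (11.1% against 13.3%) at equal lengths. The Meis1 window stood at 32.7 and 37.9 in DN1 and at 10.8, 11.3 and 19.1 in IgG at equal lengths (21.6 ± 3.53, limma adjusted p = 0.001). Lyl1 (11.9 ± 2.45, limma adjusted p = 0.0038) and Gfi1b (6.61 ± 2.08, limma adjusted p = 0.03) were the others higher in DN1, against 20.1% of all genes. As deposited 7 windows were higher in DN1 (60.4% of all genes) and 0 lower, also at an unadjusted limma p under 0.05 (0.777% of all genes lower); without DN1 replicate 1 the 7 became 0 and without IgG replicate 2 they became 4.

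**Figure D5:**
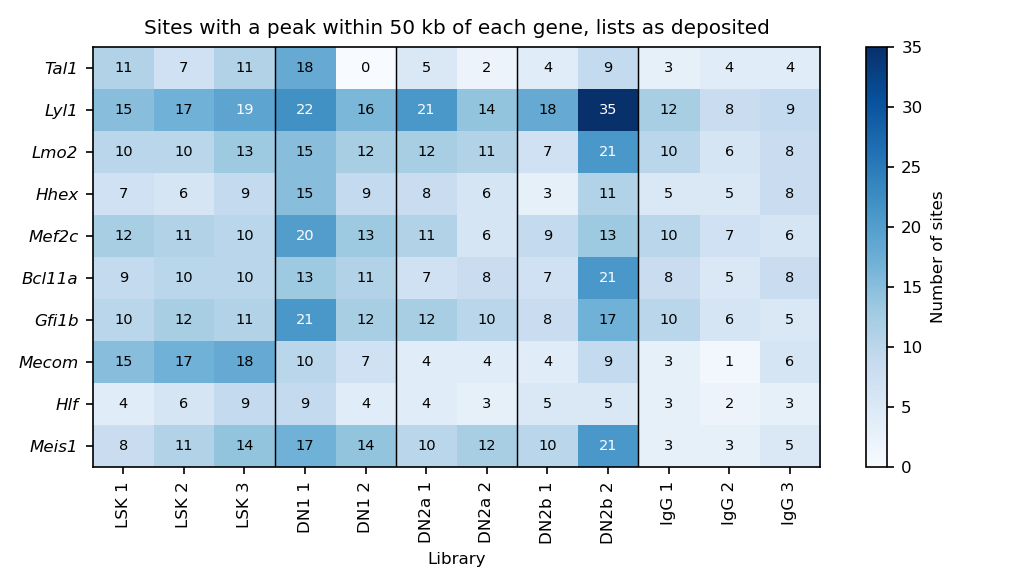
Number of sites with a peak within 50 kb of each gene (rows) in each library (columns), lists as deposited. Tal1 has 18 sites in DN1 replicate 1 and 0 in replicate 2, and Mecom falls from 15 to 18 sites in LSK to 4 in both DN2a libraries.

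Lists of related genes were counted by the same rules. The 9 partner factors of the TAL1 complex (Gata2, Gata1, Ldb1, Tcf3, Tcf12, Runx1, Erg, Fli1 and Cbfa2t3) lost 27 of 111 LSK sites (24.3%), and the 7 T lineage factors (Tcf7, Gata3, Bcl11b, Lef1, Ets1, Tox and Runx3) 11 of 45 (24.4%), both below the 34% of all sites. From LSK to DN2b 15 partner sites fell (6.41%) and 68 rose (29.1%) of 234 tested, and 3 T lineage sites fell (2.26%) and 51 rose (38.3%) of 133, against 4.76% and 16.5% of all sites. At equal lengths 19 partner sites fell (12.4%) and 39 rose (25.5%) of 153, and 6 T lineage sites fell (7.41%) and 31 rose (38.3%) of 81, against 11.4% and 14.1%. At equal lengths 1 partner window passed as lower, Gata2, which encodes the GATA factor of stem and progenitor cells (-24.4 ± 3.76, limma adjusted p = 0.00097), and 3 as higher (Ldb1, Tcf12 and Erg), against 16.3% and 13.4% of all genes. As deposited 0 partner windows passed as lower (1 at an unadjusted limma p under 0.05), with Gata2 at -12.1 (limma adjusted p = 0.073). Of the 7 T lineage windows 5 passed as higher (13.4% of all genes), among them Tcf7, a Notch target (21.7 ± 1.89, limma adjusted p = 3.1e-05). At equal lengths the median change of the window means was -14.7 for the 10 progenitor factors, 0.83 for the partners and 14.1 for the T lineage factors, with -0.854 over all genes. As deposited these medians were -1.51, 12.6 and 23.3, with 7.97 over all genes.

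Motifs in the central 150 bp were counted over all sites as a description. TGTGGT of RUNX factors was held by 13 of the 36 gained member sites (36.1%), 9 of 52 lost (17.3%) and 4 of 53 kept ones (7.55%), and over the genome by 35%, 19.6% and 18.6% of gained, lost and kept sites and by 23.1% of all sites. AGGAAG of ETS factors was in 18 lost (34.6%) and 8 gained member sites (22.2%), against 43.4% and 37.3% over the genome and 33.5% of all sites, and in 21 kept member sites (39.6%) against 30% of kept sites over the genome. AGATAA of GATA factors was in 6 lost member sites (11.5%), in 8.62% of lost sites over the genome and in 8.25% of all sites. For CAGCTG these were 4 (7.69%), 11.7% and 11.5%, and for CAGATG 4 (7.69%), 13.4% and 13.6%. For TGACAG they were 9 (17.3%), 12.8% and 12.8%, and for TGGGAA 1 (1.92%), 11.8% and 12.8%. Kept and gained member sites held AGATAA in 7.55% and 8.33% (genome 5.04% and 9.59%) and CAGCTG in 7.55% and 16.7% (genome 11.3% and 13.9%). They held CAGATG in 9.43% and 16.7% (10.9% and 16.2%), TGACAG in 15.1% and 16.7% (11.3% and 14.2%) and TGGGAA in 7.55% and 11.1% (12.1% and 13.1%). Of the printed sites Lyl1+29.50 holds AGATAA at 2 places and CAGCTG between them, Bcl11a+53.98 holds TGTGGT at 2 places, and Gfi1b+15.96 holds none of the motifs. Kept member sites were richer in G and C, with a median of 58% against 50.7% in lost and 49.7% in gained sites, as over the genome (54.7%, 50% and 49.3%).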

How the data were processed

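The authors trimmed adapters, aligned paired-end DNase-seq reads to mm10 with bwa (BWA 0.7.12 and SAMtools 1.2 in the submitters' processing notes) and called peaks in each library on its own with hotspot2 (false discovery rate 0.05). The deposited score of a peak, a whole number from 1 to 150 with no stated meaning, was used only for ranking. The read totals are not used here and the depth is unknown, so list length stands in for it and no counting interval is given.

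Peaks on autosomes and X (0.0622% were elsewhere) were merged where they shared at least 1 bp, and levels were mid-rank percentiles. Genes came from GENCODE M21 (GRCm38). Replicate numbers were given here in record order and pair no libraries. Presence needed a peak in 2 libraries of a group, or in the 1 library left where the other was left out. Site and gene window levels were fitted with limma 3.58.1 (R 4.3.3, trended variance, all 5 groups) after scripts were tested on simulated data, with Benjamini-Hochberg adjustment over all sites or genes. Values of 0 for no peak are not normal values, so p-values are approximate. They measure the spread between libraries, which may in part be technical. Counting used Python 3.11.15, pandas 2.3.3 and numpy 2.4.6, and figures matplotlib 3.10.9. Alternatives were equal list lengths, the upper 50% by score, windows of 20 and 100 kb, other filters, and leaving out each library.

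The members and lists were chosen with earlier results of these data known. Sites were named when they lay within 1 kb of the gene's own start or starts, were the highest-ranked lost or kept site, were among the 15 largest called differences from LSK to DN2b or to IgG, or were open in all Delta1 libraries and no LSK library. Named outside this rule, after their values were seen, were Bcl11a+107.08, Bcl11a+63.61, Bcl11a+9.21, Gfi1b+30.35, Hhex-6.01, Hhex+13.63, Hhex+54.24, Mecom+70.85, Mef2c+62.35 and Meis1+69.94. An item of the T lineage list is not reported here, and the list was counted without it.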

Additional observations from a re-analysis of the deposited data

How the results depend on the processing

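No paired analysis was possible because the labels give no replicate numbers (those used here only name the libraries of a group) and do not say which DN libraries share an LSK isolate. List length differs 3.39-fold between libraries, depth is unknown, and with 2 or 3 libraries a group a single list can decide a count. Of the 30 largest called site differences (15 each from LSK to DN2b and to IgG), all 30 kept direction and call at equal lengths, and none reversed under any alternative run. Smaller differences whose call ended are given beside them. The 30 were chosen for their size among called differences. In many of them 1 of the compared groups had no peak in any library. Cutting lists or leaving out a library adds no peak, so such differences could not reverse. For them the kept direction is no measure of stability. The 3 calls of the 30 that were lost under at least 1 alternative were Tal1+0.58 (-56.9 with the upper 50% by score) and Meis1+48.86 from LSK to DN2b, and Meis1+141.33 from LSK to IgG (-39.8 with the upper 50%). Where a value moved, the cause was not tested.

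For member sites called by limma, equal lengths gave 19 lower and 10 higher from LSK to DN1 (12 and 21 as deposited), 10 lower and 3 higher from DN1 to DN2a (18 and 0), 3 lower and 2 higher from DN2a to DN2b (0 and 8), 8 higher from LSK to DN2b (17), and 13 lower and 29 higher from IgG to DN1 (7 and 66). The upper 50% by score gave 13 higher from LSK to DN1, 11 lower from DN1 to DN2a, 2 lower and 1 higher from DN2a to DN2b, 17 lower and 11 higher from LSK to DN2b, 5 higher from LSK to IgG (9 as deposited) and 4 lower from IgG to DN1. Windows of 100 kb gave 32 higher from LSK to DN1, 1 higher from DN1 to DN2a and 32 higher from LSK to DN2b, and windows of 20 kb gave 11 lower from DN1 to DN2a. Without a mean-variance trend 2 were lower from DN2a to DN2b, and without promoters of neighbouring genes 4 were higher there. Windows of other sizes hold other numbers of sites. Apart from equal lengths, no share of all sites is given for these runs or for those with a library left out. Their counts are therefore not compared with the genome.

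Leaving out each library in turn gave ranges for member sites of 8 to 22 higher from LSK to DN1, 6 to 22 lower and 0 to 2 higher from DN1 to DN2a, 0 to 3 lower and 1 to 11 higher from DN2a to DN2b, 19 to 29 lower and 6 to 23 higher from LSK to DN2b, 42 to 60 lower and 9 to 14 higher from LSK to IgG, and 5 to 11 lower and 37 to 68 higher from IgG to DN1. From LSK to DN1 8 to 15 were lower. Sites lost by DN2b ranged from 31 to 52 and those lost at DN1 from 13 to 28, with presence asking for 1 peak where 1 library was left in a group. With a peak required in every library of a group these were 34 and 14.

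For the gene windows, equal lengths gave 2 lower from LSK to DN1, 1 lower from DN1 to DN2a, 1 lower from DN2a to DN2b, 9 lower from LSK to DN2b, 8 lower and 1 higher from LSK to IgG and 3 higher from IgG to DN1, against 1, 0, 0, 1, 3, 0 and 7 as deposited. The upper 50% by score gave 1 lower from DN1 to DN2a, 3 lower from LSK to DN2b and 8 lower from LSK to IgG. Windows of 100 kb gave 0 lower in DN1 than in LSK and 0 lower in DN2b than in LSK, no trend gave 0 lower from LSK to DN1, and the number of sites with a peak gave 0 lower from LSK to DN1, 1 lower from LSK to IgG and 3 higher from IgG to DN1. With a library left out, 0 to 1 were lower and 0 to 2 higher from LSK to DN1, 0 to 1 lower from DN1 to DN2a, 0 to 4 higher from DN2a to DN2b, 0 to 3 higher from LSK to DN2b, 1 to 8 lower from LSK to IgG and 0 to 9 higher from IgG to DN1, with 0 higher there without DN1 replicate 1. Apart from equal lengths, no share of all genes is given for these runs, so their counts are not compared with the genome.

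The sign of gene windows from LSK to DN2b changed for Lmo2 (4.22 at 20 kb, 1.31 at 100 kb), Bcl11a (2.56 at 20 kb), Gfi1b (-11.7 at equal lengths) and Meis1 (-14.8 at equal lengths, -4.31 with the upper 50%), and from LSK to IgG for Hhex (7.35 at equal lengths). With a library left out the LSK to DN2b values ranged from -11.3 to 9.05 for Lmo2, -13.3 to 4.28 for Hhex, -5.8 to 2.4 for Mef2c, -7.77 to 5.15 for Bcl11a, -6.55 to 14.7 for Gfi1b and -7.03 to 15 for Meis1. The 2 DN2b libraries set these ends: the values above 2 for the first 4 genes came without replicate 1 and the negative ones for Gfi1b and Meis1 without replicate 2.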

Other observations

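Peaks found in all 12 libraries made up 21 of the 285 member sites (7.37%, against 7.68% of all sites), and at equal lengths 17 of 150 (11.3% against 14.2%). Member sites open in every LSK and Delta1 library and in no IgG library were 6 (2.11%, all sites 3.17%): Bcl11a+3.19, Gfi1b+22.51, Hhex-15.00, Lmo2+44.93, Lyl1+21.59 and Meis1+69.94. At equal lengths they were 4 of 150 (2.67% against 1.95%), so the order turned with the list length. The reverse arrangement, open in every LSK and IgG library and in no Delta1 library, was held by 0 member sites and by 0.0987% of all sites, and at equal lengths by 1 (0.667% against 0.445%). Sites open in every LSK library and in no other library were 4 (1.4%, all sites 0.649%): Tal1+32.56, Mef2c+14.44, Mef2c+62.35 and Mecom+341.71. At equal lengths they were 7 (4.67% against 1.85%). These sites were named after their values were seen.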
